A study of Mus musculus with 8 samples.

Results

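The genes described here are 39 genes of the mouse that fold proteins in the endoplasmic reticulum (ER), carry the unfolded protein response (UPR), or help collagen leave the ER. They were chosen by name from these functions, with earlier results of these data known. Each of the 39 names matched 1 of the 32859 genes in the deposited count table. All 39 passed the filter on low counts, as did 18439 genes in all. The libraries came from primary portal fibroblasts sorted by red fluorescence (tdT) from livers of normal Clec3bCreERT2;R26tdT mice, a line in which a tamoxifen-inducible Cre under Clec3b control switches on the reporter. The cells of both groups went through this sort and then received a lentivirus, either one that overexpresses Klf4 (Lenti-Klf4, 4 libraries) or a control virus (Lenti-Ctrl, 4 libraries). The labels do not state the mice's age, the time after transduction, the vector's promoter or the number of mice behind each group, so p-values measure the spread between libraries, which may be technical. The comparison asks how KLF4 acts on the change of portal fibroblasts into myofibroblasts, the contractile, matrix-secreting cells of scar tissue.

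Secreted and membrane proteins enter the ER unfolded. There the Hsp70 chaperone BiP, the product of Hspa5, the lectin chaperones calnexin and calreticulin, and the protein disulfide isomerases fold them. When unfolded proteins accumulate, the sensors IRE1 (Ern1), PERK (Eif2ak3) and ATF6 signal to the nucleus, where XBP1, ATF6 and ATF4 raise chaperone and degradation genes. Collagen needs additional helpers: prolyl hydroxylases, the dedicated chaperone HSP47 (Serpinh1), and COPII coats with the receptor TANGO1 (Mia3), which accommodate its long rigid triple helix.

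Total counts ran from 57306334 to 87361995 per library, and no library stood apart: across genes, Pearson r of log2 CPM was 0.978 to 0.983 for libraries of the same group and 0.855 to 0.869 otherwise. Klf4 itself stood at 86.8, 92.3, 83.0 and 87.1 CPM (counts scaled by the TMM-adjusted size of the library) in Lenti-Ctrl and at 201, 241, 234 and 235 CPM in Lenti-Klf4, so the groups did not overlap for the gene that the labels name. General fibroblast genes were abundant in both groups, with Vim at 3166 ± 49.7 and 2149 ± 16.9 CPM (SD, n = 4 each), but Clec3b, whose driver defined the sort, was at 0.0171 ± 0.0342 and 0.280 ± 0.174 CPM. Macrophage and leukocyte markers were present in Lenti-Ctrl and much lower in Lenti-Klf4: all 13 tested of 14 fell, and their summed level was 1865 to 1950 CPM against 43.2 to 58.3 CPM, with Cx3cr1, Clec4f and Timd4 at 0 counts in every Lenti-Klf4 library. Endothelial markers fell as well, 8 of 8, from 216 to 221 down to 17.3 to 27.2 CPM in sum. Summed fibroblast markers, of which 7 of 7 fell, ran from 25762 to 26970 CPM in Lenti-Ctrl and from 10095 to 11641 CPM in Lenti-Klf4. Portal fibroblast markers, of which 4 of 8 tested rose and 3 fell, ran from 6198 to 6579 CPM in Lenti-Ctrl and from 3828 to 3929 CPM in Lenti-Klf4, and stellate cell markers, of which 3 of 4 fell, ran from 261 to 267 CPM in Lenti-Ctrl and from 17.6 to 23.0 CPM in Lenti-Klf4. Mesothelial markers, with 2 of 4 higher and 2 lower, ran from 127 to 135 CPM in Lenti-Ctrl and from 452 to 511 CPM in Lenti-Klf4, and cholangiocyte markers, with 3 of 4 higher, ran from 26.1 to 29.4 CPM in Lenti-Ctrl and from 97.3 to 125 CPM in Lenti-Klf4. Hepatocyte markers, of which 2 of 5 were tested and rose, were near 0, from 0.0559 to 0.81 CPM in Lenti-Ctrl and from 8.17 to 10.7 CPM in Lenti-Klf4. For scale, 34.7% of all genes tested fell and 37.5% rose by the edgeR test used below. These markers move with every result below, and their part in those results was not tested. In bulk RNA, fewer cells of a type and less RNA per cell cannot be told apart.

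Most of the 39 genes were lower in Lenti-Klf4, all 6 sensors and transcription factors among them, while Ero1a, Herpud1, Hspa5, Dnajb9 and Pdia4 were higher. By edgeR's quasi-likelihood test with TMM scaling, 30 of 39 fell (76.9%, against 34.7% of all genes tested), 5 rose (12.8%, against 37.5%) and 4 did not pass an adjusted p of 0.05. Together 89.7% were called, beside 72.2% of all genes, and the groups did not overlap for 34 of 39 (87.2%, beside 69.2%). Except for Ero1b, each of the 39 genes stood above the 65th percentile of the genes tested in mean FPKM. The part of this level in these shares was not tested. The median log2 fold change (LFC, Lenti-Klf4 over Lenti-Ctrl) was -0.40 for the 39 genes and 0.03 for all genes tested. Most changes were small: 7 of 39 (17.9%) were past an absolute LFC of 1, against 34.1% of all genes. These 7 were Creb3l2, P3h1, Fkbp10, Sec23a, Xbp1 and Fkbp14, which were lower, and Ero1a, which was higher.

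The direction of the smaller changes depended on the scaling. Scaling by library totals alone shifted the median LFC over all genes by 0.19, and it gave 12 of the 39 genes higher and 24 lower, with 8328 higher and 5172 lower over all genes, against 6914 and 6393 with TMM. The 5 genes that rose and 23 of the 30 that fell were called in the same direction under all 17 settings tried. The other 7 that fell were Hsp90b1, Dnajb11, Calr, Serpinh1, Crtap, Ppib and Sec13, each changed by less than 1.2-fold, and each was lost or turned in at least 1 setting. Changes below are relative to the TMM scaling.

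**Figure D1:**
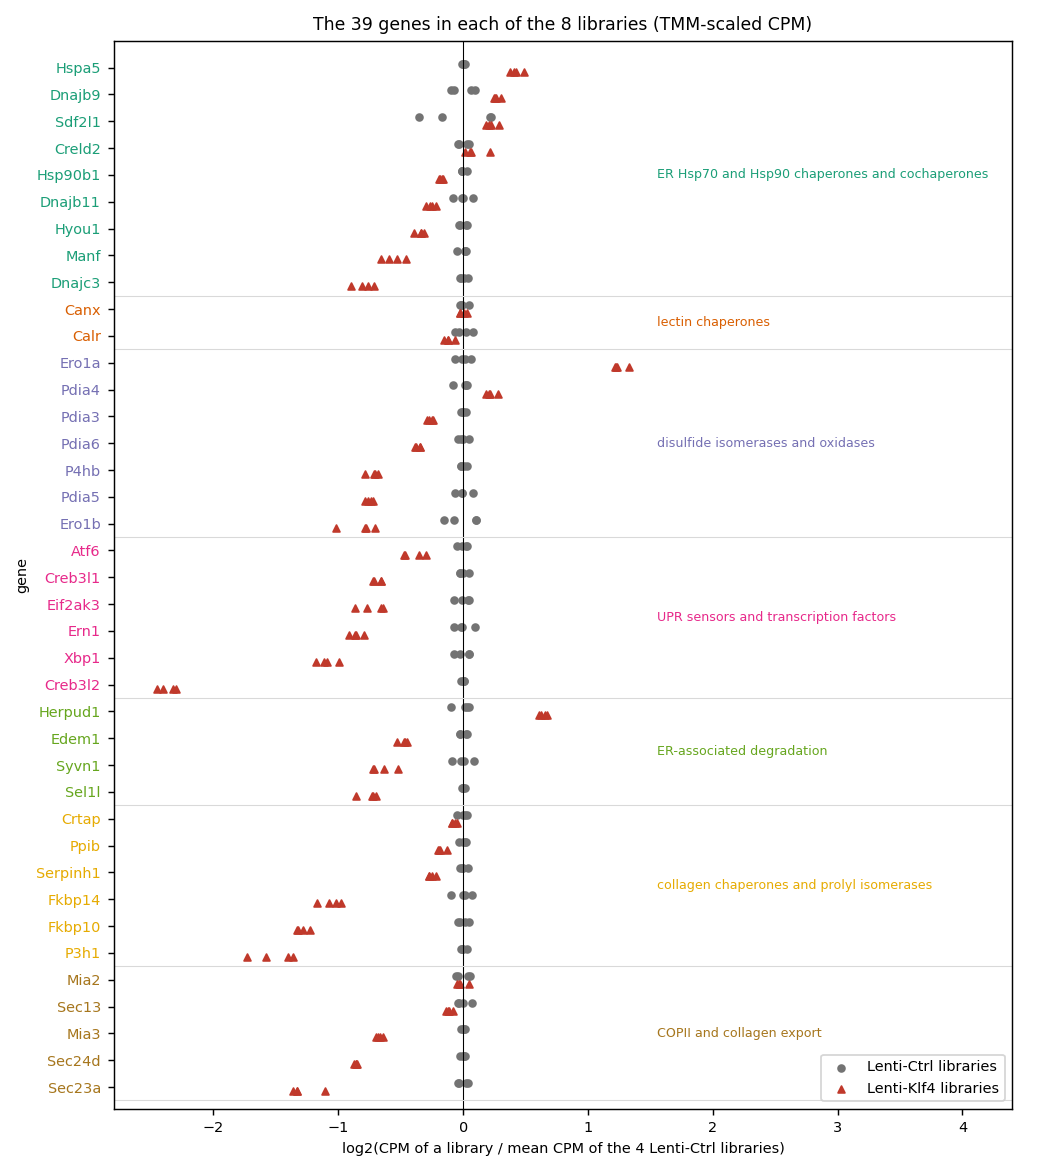
Each gene's TMM-scaled CPM in each of the 8 libraries, as log2 of the ratio to the mean of the 4 Lenti-Ctrl libraries (x axis), with genes on the y axis grouped by role; grey circles are Lenti-Ctrl and red triangles Lenti-Klf4 libraries. The red triangles of Ero1a, Herpud1, Hspa5, Dnajb9 and Pdia4 lie to the right of every grey circle, whereas all 6 sensor and transcription factor genes lie to the left, Creb3l2 farthest at an LFC of -2.37.

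The ER Hsp70 machine split. Hspa5 (ENSMUSG00000026864, GRCm39 chromosome 2, 34661982 to 34667559, plus strand), the master chaperone and the brake on all 3 sensors, was at 1022, 1018, 1027 and 1010.3 CPM in the Lenti-Ctrl libraries and at 1426, 1319, 1367 and 1354 CPM in the Lenti-Klf4 libraries. The groups were well separated, and Hspa5 rose 1.34-fold (LFC 0.42, SE 0.0253, adjusted p = 1.08e-08). Dnajb9, a cochaperone that restrains IRE1, rose from 36.3, 35.6, 40.9 and 39.9 CPM to 47.1, 45.7, 45.6 and 45.3 CPM, an LFC of 0.27 (SE 0.0538, adjusted p = 6.63e-04).

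Its partners did not follow. Dnajc3, the cochaperone P58IPK and an inhibitor of PERK, was at 191, 182, 187 and 184 CPM in Lenti-Ctrl and at 99.6, 109.6, 106 and 114 CPM in Lenti-Klf4, a fall of 1.74-fold (LFC -0.80, SE 0.0412, adjusted p = 2.67e-09). Hyou1, the nucleotide exchange factor of BiP, fell from 193 ± 4.52 to 152 ± 3.76 CPM. Dnajb11 went from 122 ± 5.65 to 102 ± 2.25 CPM, a call that was lost with library totals alone (LFC -0.06, adjusted p = 0.15). Hsp90b1, the ER Hsp90 GRP94, was at 891, 869, 865 and 866 CPM against 779, 768, 776 and 763 CPM, which is lower with TMM (LFC -0.18, adjusted p = 9.27e-06) but 0.02 with library totals alone. The ratio of Hspa5 to Hsp90b1 within a library does not depend on scaling, and it rose 1.52-fold.

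Manf, a secreted ER stress protein, fell from 82.8 ± 2.01 to 56.3 ± 3.32 CPM. Its counts are uncertain, because its interval in the table overlaps Rbm15b on the same strand and Dcaf1 on the other, with mean counts of 107% and 72.3% of its own, and the way reads were assigned to overlapping genes was not stated. Sdf2l1, a BiP-associated protein, did not pass: it was at 14.6, 14.5, 11.1 and 9.79 CPM in Lenti-Ctrl and 14.4, 14.6, 15.3 and 14.2 CPM in Lenti-Klf4 (adjusted p = 0.129). Lenti-Ctrl replicates 1 and 2 lay within the range of the other group, and replicates 3 and 4 lay below it. Creld2, at 26.8 ± 0.827 and 28.5 ± 1.75 CPM (adjusted p = 0.207), also overlapped, and both genes passed as higher with library totals alone (0.42 and 0.28 on the log2 scale).

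The lectin chaperones, which hold glycoproteins in the folding cycle, changed little. Calr was at 933, 972, 876 and 896 CPM in Lenti-Ctrl and at 877, 825, 847 and 846 CPM in Lenti-Klf4, and the groups overlapped. With TMM it passed as lower (LFC -0.12, adjusted p = 0.00768), whereas library totals alone made it pass as higher (0.08, adjusted p = 0.0330). Canx, at 565 ± 12.2 and 564 ± 10.6 CPM, did not pass (adjusted p = 0.904), and it passed as higher with library totals alone (0.19). The ratio of Calr to Canx was 0.926 times that of Lenti-Ctrl.

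Of the 7 genes of oxidative folding, 5 fell (71.4%, against 34.7% of all genes tested) and 2 rose (28.6%, against 37.5%). Among the latter, Ero1a had the largest rise of the 39 genes. Ero1a (ENSMUSG00000021831, chromosome 14, 45520544 to 45556029, minus strand) encodes the oxidase that recharges protein disulfide isomerase and is known to respond to hypoxia and to the factor CHOP. It was at 203, 192, 210.2 and 199 CPM in Lenti-Ctrl and at 506, 468, 469.8 and 472 CPM in Lenti-Klf4. No library came near the other group, and Ero1a rose 2.38-fold (LFC 1.25, SE 0.0361, adjusted p = 1.27e-11). Its paralog Ero1b went the other way, from 16.4, 14.5, 13.7 and 16.4 CPM to 8.87, 9.37, 8.89 and 7.54 CPM (LFC -0.82, SE 0.10, adjusted p = 1.05e-05). The ratio of Ero1a to Ero1b therefore rose 4.19-fold.

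Of the 5 disulfide isomerases, 4 fell and 1 rose, beside 34.7% and 37.5% of all genes tested. P4hb, which is both the general isomerase PDI and the beta subunit of collagen prolyl 4-hydroxylase, was at 1538, 1564, 1512 and 1515 CPM against 888, 936, 954 and 940.3 CPM (LFC -0.72, SE 0.0260, adjusted p = 9.45e-11), and the groups lay far apart. Pdia5 fell from 67.0 ± 2.79 to 39.8 ± 0.713 CPM and Pdia6, which acts on BiP substrates and the sensors, from 227 ± 5.73 to 176 ± 2.52 CPM. Pdia3, the partner of calnexin and calreticulin, fell from 970.0 ± 9.77 to 808 ± 11.1 CPM. Pdia4 was the exception and rose from 177, 175, 163 and 175 CPM to 209, 195, 199 and 199.9 CPM (LFC 0.22, SE 0.0351, adjusted p = 1.02e-04).

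All 6 sensors and transcription factors were lower in every Lenti-Klf4 library (100% called lower, against 34.7% of all genes tested). Creb3l2 (ENSMUSG00000038648, chromosome 6, 37304190 to 37419081, minus strand) encodes BBF2H7, an ER-bound factor known in cartilage for raising Sec23a and other COPII genes for collagen export. It was at 304, 302, 303 and 299 CPM in Lenti-Ctrl and at 55.3, 60.2, 61.4 and 57.2 CPM in Lenti-Klf4. That is the largest fall of the 39 genes, 5.16-fold (LFC -2.37, SE 0.0375, adjusted p = 9.73e-14). Its paralog Creb3l1, which encodes OASIS, a factor known for collagen I transcription in bone, fell less, from 135, 142, 137 and 135 CPM to 87.2, 86.9, 83.5 and 83.8 CPM (LFC -0.69, SE 0.0328). The ratio of Creb3l1 to Creb3l2 rose 3.21-fold.

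Xbp1, the effector of IRE1, was at 149, 141, 148 and 137 CPM in Lenti-Ctrl and at 67.4, 72.0, 66.5 and 63.6 CPM in Lenti-Klf4 (LFC -1.09, SE 0.0447, adjusted p = 2.91e-10). Gene counts do not show how much Xbp1 RNA had been spliced to its active form. The 3 sensors fell together: Ern1 from 79.3 ± 3.90 to 43.7 ± 1.51 CPM, Eif2ak3 from 55.6 ± 2.17 to 33.5 ± 2.44 CPM and Atf6 from 154 ± 3.74 to 117 ± 6.98 CPM. Protein levels and sensor activity were not measured.

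ER-associated degradation returns misfolded proteins to the cytosol. Herpud1, a stress-inducible scaffold of the HRD1 ligase, was at 109, 110.1, 101 and 111 CPM in Lenti-Ctrl and at 171, 165, 169 and 164 CPM in Lenti-Klf4, so it rose 1.56-fold (LFC 0.64, SE 0.0374, adjusted p = 8.80e-09). The other 3 degradation genes among the 39 fell (75% of the 4, against 34.7% of all genes tested). Sel1l, the HRD1 adaptor, went from 245, 243, 241 and 242 CPM to 134, 147, 149 and 146 CPM (LFC -0.75, SE 0.0360). Syvn1, which encodes HRD1 itself, fell from 75.4 ± 3.81 to 48.2 ± 3.22 CPM, and Edem1, which marks glycoproteins for disposal, from 149 ± 3.06 to 107 ± 2.63 CPM. Syvn1 overlaps Mrpl49 on the other strand by 91 bases, and the mean count of Mrpl49 was 66.8% of that of Syvn1, so a part of its counts is uncertain.

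Collagen chaperones fell unevenly. P3h1 (ENSMUSG00000028641, chromosome 4, 119090112 to 119106172, plus strand), the prolyl 3-hydroxylase of collagen I, was at 221, 223, 220.3 and 228 CPM in Lenti-Ctrl and at 67.1, 84.3, 74.5 and 86.7 CPM in Lenti-Klf4. It fell 2.86-fold (LFC -1.51, SE 0.0679, adjusted p = 6.79e-10). P3h1 works in a complex with Crtap and Ppib (cyclophilin B), and these partners hardly moved. Crtap was at 150.4, 155, 157 and 158 CPM against 150.1, 148, 146 and 146 CPM, an LFC of -0.07 that passed narrowly (adjusted p = 0.0434). Its call was kept in 7 of 17 settings. It was lost with no filter on low counts (LFC -0.05, adjusted p = 0.208) and under the replicate block (adjusted p = 0.0821). Leaving out Lenti-Ctrl replicate 2, 3 or 4 or Lenti-Klf4 replicate 3 or 4 lost it as well (adjusted p = 0.0517 to 0.110). With library totals alone the LFC of Crtap turned to 0.12. Ppib was at 245 ± 4.4 and 217 ± 4.89 CPM (LFC -0.18, adjusted p = 1.09e-04), and at 0.02 with library totals alone.

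Fkbp10 and Fkbp14 encode the ER prolyl isomerases FKBP65 and FKBP22. Fkbp10 fell from 388, 413, 391 and 404 CPM to 159.9, 171, 159 and 164 CPM (LFC -1.29, SE 0.0332, adjusted p = 4.90e-12). Nt5c3b overlaps Fkbp10 on the other strand with 11.7% of its mean count. Fkbp14 fell from 66.4, 61.9, 67.1 and 69.7 CPM to 29.5, 33.7, 31.6 and 32.7 CPM (LFC -1.06). Serpinh1, the gene of HSP47, was at 1239, 1274, 1218 and 1228 CPM in Lenti-Ctrl and at 1064, 1045, 1027 and 1023 CPM in Lenti-Klf4. These groups did not overlap, but the change was small (LFC -0.25, SE 0.0232, adjusted p = 6.29e-07), and it did not pass in limma on log2(FPKM + 1), where it was -0.05 (adjusted p = 0.0603).

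Among the COPII and export genes, Sec23a and Sec24d, which form the inner coat that selects cargo, fell. Sec23a was at 220.0, 211, 223 and 212 CPM in Lenti-Ctrl and at 84.2, 85.8, 101 and 86.0 CPM in Lenti-Klf4 (LFC -1.28, SE 0.0533, adjusted p = 3.51e-10). Sec24d went from 231, 236, 237 and 236 CPM to 129, 130.1, 129.8 and 129.5 CPM (LFC -0.86, SE 0.0265). The outer coat gene Sec13, at 155 ± 5.63 and 143 ± 2.08 CPM, was -0.11 with TMM (adjusted p = 0.00821) and 0.08 with library totals alone (adjusted p = 0.0407). Mia3, the gene of TANGO1, fell from 187, 185, 188 and 189 CPM to 116, 117, 118 and 120.3 CPM (LFC -0.67, SE 0.0285, adjusted p = 4.17e-10). Its partner Mia2 (cTAGE5) was at 106 ± 4.03 and 105 ± 3.17 CPM and did not pass (adjusted p = 0.722), though it passed as higher with library totals alone (0.18). The ratio of Mia3 to Mia2 was 0.635 times that in Lenti-Ctrl.

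**Figure D2:**
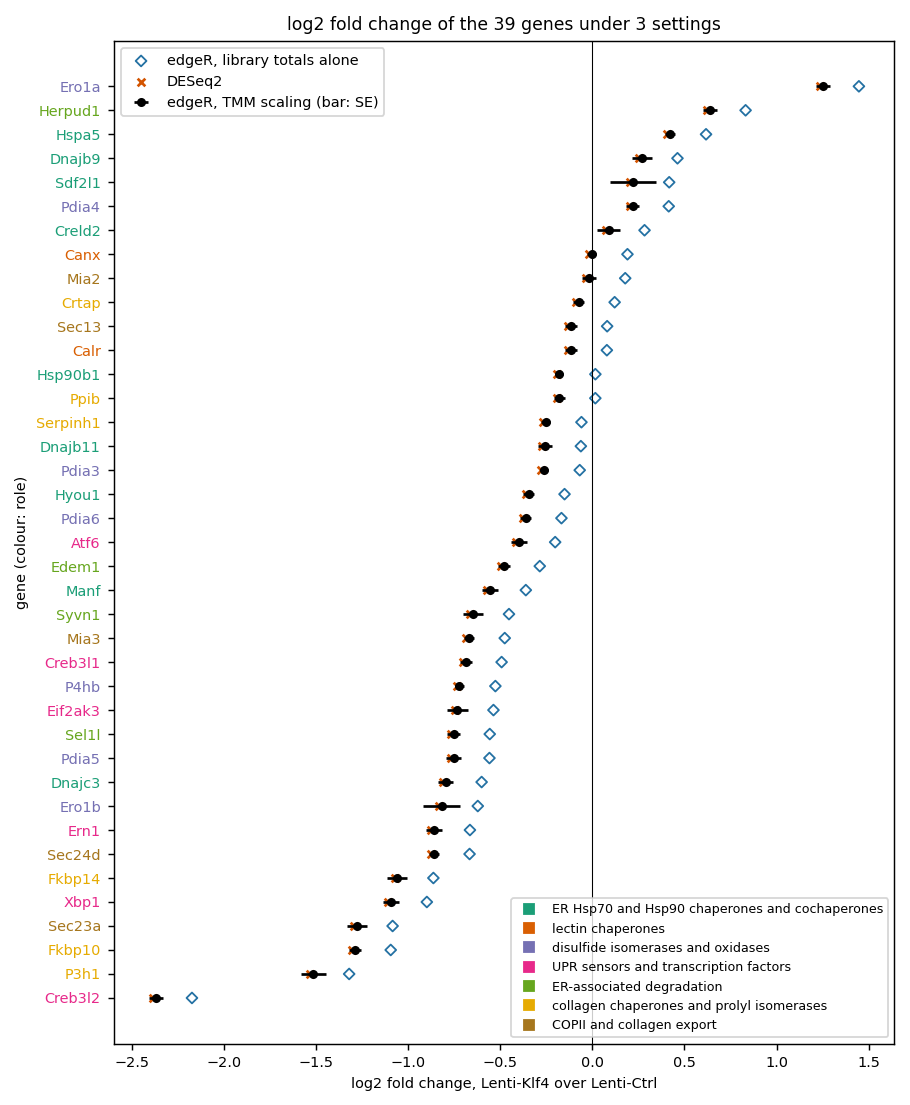
log2 fold change (LFC) of Lenti-Klf4 over Lenti-Ctrl (x axis) for each gene (y axis, colours give the role): black points with SE bars are edgeR with TMM scaling, open diamonds edgeR with library totals alone, crosses DESeq2. Every diamond lies to the right of its point by about 0.19, which carries Crtap, Sec13, Calr, Hsp90b1 and Ppib, and Canx and Mia2 that did not pass with TMM, across 0, while Ero1a at 1.25 and Creb3l2 at -2.37 keep their sides.

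Collagen I, a main cargo of these helpers, has 2 kinds of chain, and they fell by unequal amounts. Col1a1 was at 10898, 11156, 10406 and 10801 CPM in Lenti-Ctrl and at 2433, 2965, 2822 and 2776 CPM in Lenti-Klf4 (LFC -1.98), while Col1a2 went from 5425 ± 112 to 2982 ± 112 CPM (LFC -0.86). The log2 ratio of Serpinh1 to Col1a1 was -3.14, -3.13, -3.09 and -3.14 in Lenti-Ctrl and -1.19, -1.51, -1.46 and -1.44 in Lenti-Klf4, so it rose 3.31-fold, and by 1.53-fold against Col1a2. P4hb over Col1a1 rose 2.39-fold, and Fkbp10 over Col1a1 rose 1.61-fold although Fkbp10 itself fell. These values depend on the chain: the LFC of Fkbp10 (-1.29) was below that of Col1a2 (-0.86), the reverse of its order with Col1a1, and that of P4hb (-0.72) was close to it. The ratios of P4hb and Fkbp10 to Col1a2 were not tested. Sec24d over Sec23a rose 1.34-fold. An exact two-sided permutation test, with 70 possible arrangements of the group labels, gave p = 0.0286 for each of the 10 ratios compared. That is the smallest it can give, and the adjusted p was 0.0286 as well. The pairs were chosen with earlier results of these data known, so these p-values give no independent support for the ratios.

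**Figure D3:**
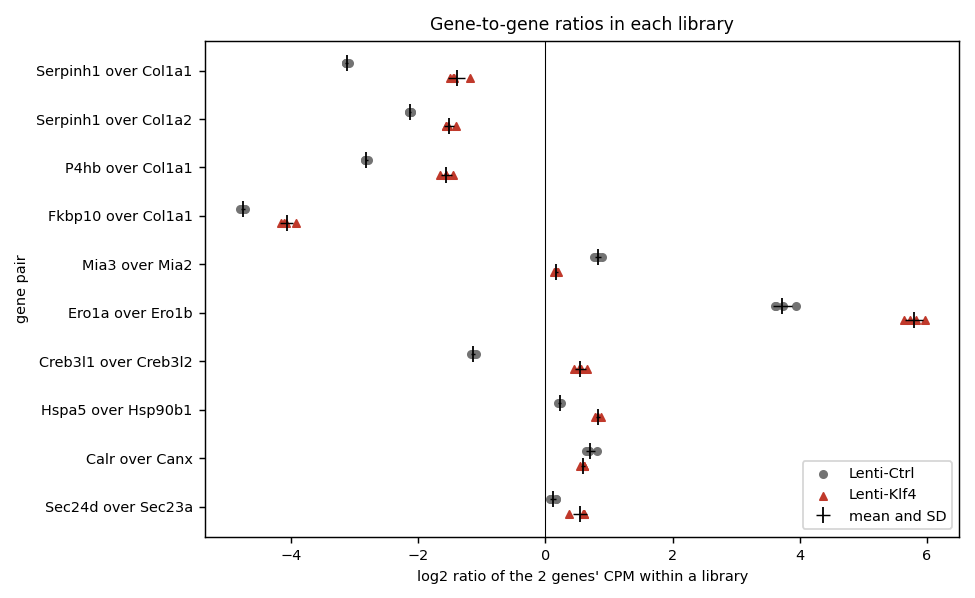
log2 ratio of the CPM of 2 genes within a library (x axis) for the 10 gene pairs (y axis); grey circles are the 4 Lenti-Ctrl and red triangles the 4 Lenti-Klf4 libraries, and the black marks give the mean and SD. The groups are apart for every pair, by the most for Ero1a over Ero1b, whose ratio changed 4.19-fold, and by the least for Calr over Canx, where it was 0.926 times.

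Levels of different genes can be compared only per length, for which the authors' FPKM values serve. In Lenti-Ctrl the order began with P4hb at 464 ± 4.53 FPKM, Serpinh1 at 439 ± 6.35 FPKM, Calr at 276 ± 10.8 FPKM and Pdia3 at 268 ± 4.34 FPKM, the last pair within their spread. In Lenti-Klf4 it began with Serpinh1 at 423 ± 5.36 FPKM, followed by P4hb at 323 ± 12.1 FPKM and Hspa5 at 321 ± 8.36 FPKM, which lay within their spread. Ero1b was the lowest of the 39 in both groups, at 1.98 ± 0.178 and 1.29 ± 0.117 FPKM. Creb3l2 moved from rank 19 to rank 35, at 35.9 ± 0.262 and 7.98 ± 0.422 FPKM, and Ero1a from rank 20 to rank 8. The 39 genes together held 1.10% to 1.12% of all counts in the Lenti-Ctrl libraries and 1.05% to 1.06% in the Lenti-Klf4 libraries.

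**Figure D4:**
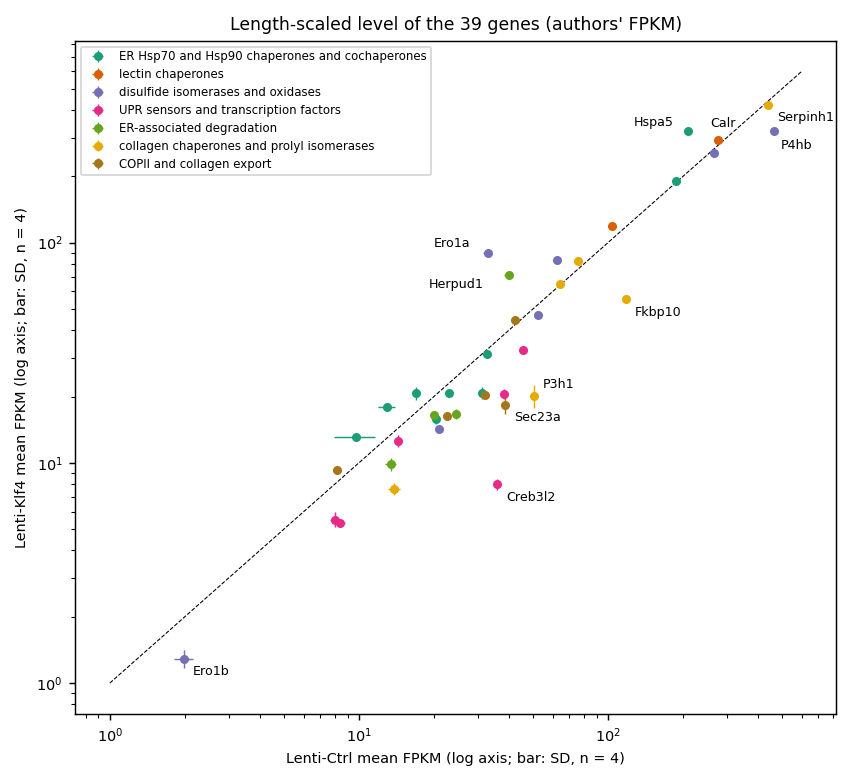
Mean FPKM of each of the 39 genes in Lenti-Ctrl (x axis) and Lenti-Klf4 (y axis), both on log axes, with SD bars over 4 libraries and the dashed line of equal level. P4hb at 464 and 323 FPKM and Creb3l2 at 35.9 and 7.98 FPKM lie below the line, and Hspa5 at 209 and 321 FPKM and Ero1a at 32.9 and 90.0 FPKM above it; FPKM are scaled by library totals, which places most genes slightly higher than TMM does.

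Promoter sequences show what many of the chaperone genes share. RefSeq windows of 300 bases (GRCm38.p6, 250 bases before to 50 after a gene's start) matched 34 of the 39 genes, and none was matched for Atf6, Creb3l1, Fkbp10, Hyou1 and Manf. The ER stress response element (ERSE, CCAAT and CCACG with any 9 bases between them, searched on both strands) is the known site of ATF6 and XBP1 with NF-Y. An exact match stood in the windows of 9 of the 34 genes (26.5%), against 0.137% of the 27025 genes with a window. The genes were chosen by name for ER folding, the UPR and secretion, and ERSE is a known UPR site. This excess is therefore no independent result. ERSE-II (ATTGG and CCACG with any 1 base between them, both strands) stood in 2 of 34, against 0.0444%, with the same limit. The Dnajb11 match lies after the gene's start, at bases 258 to 268 of the window, whereas every other match printed below lies before the start. The matches are printed below in the direction of the motif, with its fixed letters in capitals, so that the invariant ends and the free spacer can be compared.

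Hspa5: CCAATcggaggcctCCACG
Calr: CCAATgagggtcgaCCACG
Canx: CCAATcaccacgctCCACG
Creld2: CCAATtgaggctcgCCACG
Dnajc3: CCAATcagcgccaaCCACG
Ero1b: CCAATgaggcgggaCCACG
Hsp90b1, upstream match: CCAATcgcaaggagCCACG
Hsp90b1, downstream match: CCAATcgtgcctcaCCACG
Pdia6: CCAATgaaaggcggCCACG
Syvn1: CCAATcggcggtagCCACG
Herpud1, ERSE-II: ATTGGgCCACG
Dnajb11, ERSE-II: ATTGGcCCACG

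Genes with such a match went both ways. Of the 11, 2 rose (Hspa5 and Herpud1), 7 fell (Syvn1, Dnajc3, Ero1b, Pdia6, Dnajb11, Hsp90b1 and Calr) and Canx and Creld2 did not pass. Over all genes tested, 37.5% rose and 34.7% fell. With library totals alone Calr, Canx and Creld2 passed as higher (0.08, 0.19 and 0.28). Under that setting Hsp90b1 turned to 0.02 and Dnajb11 was at -0.06, and neither passed. Their LFCs ran from -0.82 to 0.64 with a median of -0.18. Of the 23 genes whose windows held neither element, 3 rose, 18 fell and 2 did not pass, and their LFCs ran from -2.37 to 1.25 with a median of -0.67. With library totals alone Sdf2l1, Crtap, Sec13 and Mia2 among these 23 passed as higher, and Ppib did not pass. No test was made of the difference between the 11 and the 23 genes. The core of the UPR element (TGACGTGG, both strands) was found in Sec23a and Sec24d, 5.88% of the 34 genes against 0.714% of all genes. The shorter site CCACG (both strands), which lies within ERSE and ERSE-II, was in 85.3% of the 34 and in 35.5% of all genes. The choice of genes by function limits these shares too. A match describes letters in a window and no binding was measured.

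The whole windows of a gene that rose and of one that fell with the same exact element are printed with the match in capitals, 5′ to 3′ as RefSeq's GRCm38.p6 gives them. Hspa5 lies at chr2:34771840-34772139 on the plus strand and Syvn1 at chr19:6046326-6046625 on the plus strand. Only exact matches were sought, so near matches in either window stay in lower case. A part of the Syvn1 counts is uncertain, as given above, and Dnajc3 and Ero1b fell more with the same element.

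Hspa5: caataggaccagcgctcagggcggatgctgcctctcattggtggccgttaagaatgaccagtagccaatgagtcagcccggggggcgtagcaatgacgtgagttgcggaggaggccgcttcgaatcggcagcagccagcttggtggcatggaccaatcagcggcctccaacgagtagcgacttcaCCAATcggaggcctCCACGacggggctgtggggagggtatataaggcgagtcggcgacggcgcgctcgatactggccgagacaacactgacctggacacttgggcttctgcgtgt
Syvn1: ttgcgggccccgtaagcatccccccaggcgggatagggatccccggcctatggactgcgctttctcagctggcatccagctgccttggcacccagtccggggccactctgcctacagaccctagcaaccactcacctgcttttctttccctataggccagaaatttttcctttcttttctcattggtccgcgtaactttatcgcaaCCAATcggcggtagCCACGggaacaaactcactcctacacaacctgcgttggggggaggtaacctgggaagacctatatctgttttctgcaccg

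The rest of the secretory pathway, in lists chosen by function with earlier results of these data known, held more genes that fell than rose, except for stress signalling. Over all genes tested, 34.7% fell and 37.5% rose. Of 32 translocon, signal peptidase and glycosylation genes that bring chains into the ER, 26 fell and 6 rose (median LFC -0.26), though 15 fell with library totals alone. Among them Dad1, an oligosaccharyltransferase subunit, fell from 75.9 ± 3.59 to 38.2 ± 2.04 CPM and Srp54a, of the signal recognition particle, from 97.6 ± 11.1 to 45.9 ± 5.76 CPM. Of 24 tested other chaperones and isomerases, 15 fell and 4 rose (median -0.28), with Qsox1, a sulfhydryl oxidase, going from 284 ± 4.68 to 114 ± 3.13 CPM and Selenom from 87.9 ± 3.72 to 32.3 ± 0.812 CPM. With library totals alone 9 of these 24 were called higher.

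Of 30 other COPII and ER exit genes, 22 fell and 5 rose (median -0.37), or 8 rose with library totals alone. Mcfd2, a cargo receptor subunit, fell from 384 ± 3.15 to 155 ± 8.47 CPM and Surf4, a cargo receptor, from 541 ± 15.7 to 259 ± 7.34 CPM. Of 15 COPI and retrieval genes, 11 fell and 3 rose (median -0.41), and Kdelr3, a receptor that returns KDEL-tagged chaperones to the ER, fell from 155 ± 3.54 to 59.2 ± 2.51 CPM. Copz2, a COPI coat subunit, fell from 48.2 ± 2.05 to 24.8 ± 1.58 CPM. Of 19 other degradation genes, 11 fell (57.9%) and 5 rose (26.3%), with a median of -0.32. Edem3 went from 102 ± 6.08 to 50.0 ± 4.31 CPM and Selenos from 65.5 ± 3.72 to 37.9 ± 0.967 CPM. For all genes tested the median was 0.03, and 34.7% fell and 37.5% rose. Library totals alone shifted the median of all genes upwards by 0.19, which bears on each of these lists.

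Enzymes that modify collagen before export fell, 10 of 11 tested (90.9%, against 34.7% of all genes, median -0.84), and 1 did not pass. Plod2, a lysyl hydroxylase of collagen telopeptides, went from 772, 749, 792 and 757 CPM to 109.6, 121, 119 and 122 CPM, an LFC of -2.70 (SE 0.0380). P3h3 fell from 125 ± 2.08 to 55.0 ± 3.22 CPM. Of 10 collagen chains listed as cargo, 8 fell and 2 rose (median -2.03), with Col6a3 from 680.3 ± 15.3 to 95.0 ± 3.54 CPM and Col4a1 from 7068 ± 197 to 1381 ± 41.1 CPM. The chains that rose, named after their values were seen, were Col6a1, from 109.8 ± 4.68 to 213 ± 5.52 CPM, and Col6a2, from 94.9 ± 6.04 to 141 ± 4.39 CPM.

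Most other genes of stress signalling rose. Among the 18 tested, 13 rose (72.2%, against 37.5% of all genes) and 2 fell (11.1%, against 34.7%). The other 3 missed the threshold, and the median LFC was 0.75. The largest rises in this list were Hsph1, from 42.5 ± 2.53 to 459 ± 23.0 CPM, and Hspa1a, from 11.6 ± 0.868 to 105 ± 5.10 CPM, which are chaperones of the cytosol known from the heat shock response and not from the ER. The other genes of this list named here were chosen after their values were seen. Dnajb1, also a cytosolic chaperone gene, rose from 64.9 ± 2.52 to 206 ± 7.07 CPM. These cytosolic genes are counted among the 13 and in the median. Atf4, the factor translated when PERK is active, rose from 290.0, 293, 302 and 288 CPM to 538, 503, 509 and 512 CPM (LFC 0.81), Ddit3, the gene of CHOP, from 59.4 ± 2.72 to 153 ± 2.69 CPM, Trib3 from 41.1 ± 3.26 to 154 ± 5.71 CPM and Chac1 from 19.5 ± 1.37 to 139.6 ± 5.27 CPM. The 2 that fell were Creb3, from 157 ± 3.67 to 66.8 ± 6.22 CPM, and Creb3l4, from 1.82 ± 0.509 to 0.900 ± 0.185 CPM, which encode relatives of Creb3l1 and Creb3l2. Eif2ak3, which encodes PERK, was lower in the same libraries, as given above. A link between Eif2ak3 and the genes that rose was not tested.

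**Figure D5:**
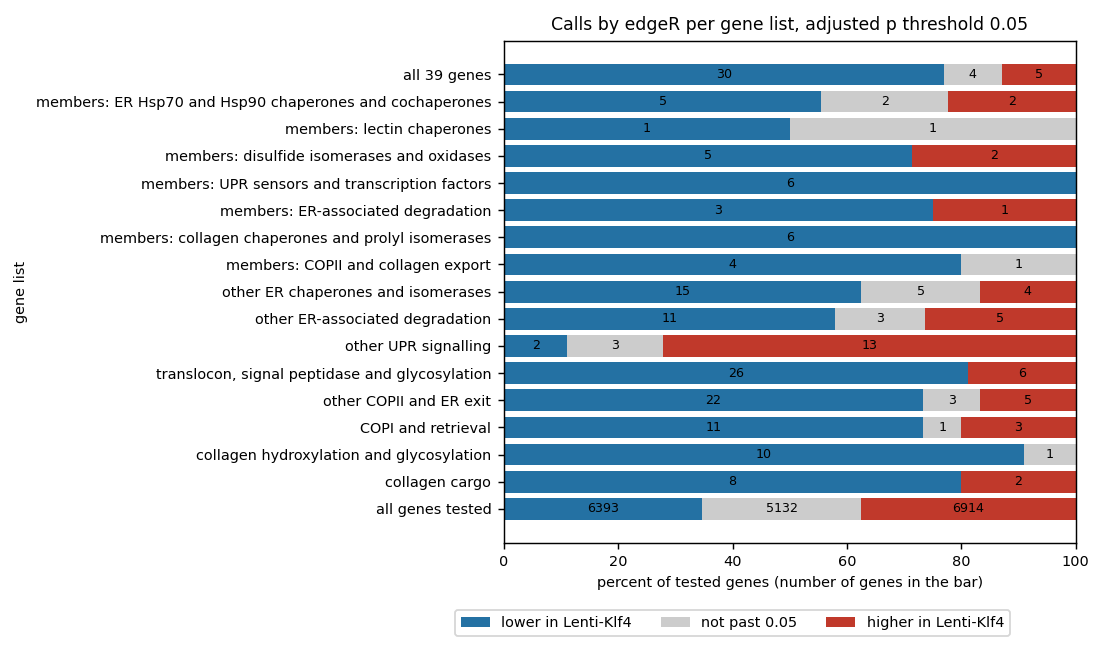
Share of tested genes (x axis, percent) that were lower (blue), not past an adjusted p of 0.05 (grey) or higher (red) in Lenti-Klf4 by edgeR with TMM scaling, for the 39 genes, their 7 role groups, the other pathway lists and all genes tested (y axis), with the number of genes in each bar. The blue part is 76.9% for the 39 genes and 34.7% for all genes. The list with the widest red part, 13 of 18, is other UPR signalling, which also holds cytosolic heat shock chaperones.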

How the data were processed

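Polyadenylated RNA was sequenced in 8 paired-end libraries that mark the strand with dUTP, per the labels' protocols. The authors deposited raw counts per gene and, in the same table, FPKM values, which are per transcript length and library total by definition. A second deposited table holds the authors' DESeq2 result per gene, with log2 fold changes, mean normalised counts (a signal deposited as baseMean), a test score (the deposited statistic) and the deposited p-value and adjusted p-value. Build GRCm39 and the tools StringTie 2.1.6, HISAT2 2.2.1, cutadapt 1.9 and DESeq2 come from the submitters' processing notes. The counting step and its strand setting were not given in the sources used here.

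The deposited counts went into edgeR 4.0.16 under R 4.3.3 (filterByExpr, TMM, quasi-likelihood F test, group as the only term) over 18439 genes of 32859, with Benjamini-Hochberg adjustment over all genes tested and a threshold of 0.05. CPM use library totals times TMM factors, values are mean ± SD, and SE is that of the log2 fold change. Ratios of 2 genes were tested by exact permutation. The 39 genes, the lists and the pairs were chosen with earlier results of these data known. The genes named by rule were the 39, Klf4, the genes of the pairs and, per other list, up to 2 that passed with the largest change, at least 20 CPM on average and no overlap between groups. Marker genes and overlapping genes aside, those named outside this rule are said to have been chosen after their values were seen. For 1 listed symbol with several IDs (Ddit3) the ID with most counts was used. Alternatives were other scalings, filters, DESeq2 1.42.0, limma 3.58.1 on voom or FPKM values (1 or 0.1 added), a replicate block and each library left out.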

Additional observations from a re-analysis of the deposited data

Results flagged for a closer look

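In 4 of the 78 groups of 4 libraries examined for the 39 genes, 1 library stood apart by Dixon's criterion (critical value 0.829), and chance flags about 1 in 20 groups. Ero1a was at 506 CPM in Lenti-Klf4 replicate 1, above 468 to 472 CPM in the others. Sec23a was at 101 CPM in Lenti-Klf4 replicate 3, above 84.2 to 86.0 CPM in the others. Hsp90b1 was at 891 CPM in Lenti-Ctrl replicate 1, above 865 to 869 CPM in the others, and Pdia4 was at 163 CPM in Lenti-Ctrl replicate 3, below 175 to 177 CPM in the others. None of these libraries lay within the range of the other group for the gene concerned.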

How the results depend on the processing

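The count of the 39 genes called higher was 5 in every setting but 3: it was 12 with library totals alone and 12 in limma on log2(FPKM + 1) and on log2(FPKM + 0.1), with 24, 23 and 23 called lower. The lowest count called lower outside these was 27, with no filter on low counts, and leaving out each library gave 5 higher and 29 to 30 lower. With library totals alone, log2(FPKM + 1) and log2(FPKM + 0.1), in that order, the log2 fold change turned to 0.017, 0.021 and 0.021 for Hsp90b1, to 0.079, 0.084 and 0.084 for Calr, to 0.19, 0.19 and 0.19 for Canx, to 0.12, 0.12 and 0.13 for Crtap, to 0.017, 0.020 and 0.020 for Ppib, to 0.081, 0.083 and 0.085 for Sec13 and to 0.18, 0.16 and 0.18 for Mia2. These settings scale by library totals, which shifts the median gene upwards by 0.18 to 0.20. With no filter Canx was 0.020 and Mia2 0.0076. Of the 663 comparisons of a gene's main value with an alternative, 617 kept direction and call, 14 lost the call, 6 gained it and 26 turned. The differences in log2 ratio kept their values within the spread between libraries with each library left out. Under FPKM they were nearly the same by construction, since library scaling cancels in a ratio and gene length cancels between groups. Leaving out 1 library gave log2 fold changes of -0.031 to 0.0100 for Canx and -0.043 to 0.00025 for Mia2, and the log2 difference ranged from 1.66 to 1.76 for Serpinh1 over Col1a1 and from 2.01 to 2.14 for Ero1a over Ero1b. The replicate block gave 5 higher and 29 lower, and Crtap was the call it changed, at an adjusted p of 0.0821. In ratios it gave the same differences, such as 1.73 for Serpinh1 over Col1a1, with p = 0.125 by an exact sign-flip permutation test, the smallest that 4 pairs can give. The replicate numbers were not taken as pairs, since deviations of same-numbered libraries from their group means correlated at -0.00542 to 0.0220 and 2 of 4 correlated best with their own number. Ero1b and Sdf2l1 had the lowest CPM of the 39 genes and the widest SE.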

Other observations

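The authors' deposited table of their own DESeq2 result lists all 39 genes. At an adjusted p of 0.05 the authors' deposited table has 5 of them higher and 32 lower, and Sdf2l1 and Creld2 do not pass. The log2 fold changes in the authors' deposited table lie 0.082 to 0.083 below those computed here for each of the 39 genes. With that offset Canx (-0.09) and Mia2 (-0.10), which did not pass above, pass as lower in the authors' deposited table.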
